A study of Mus musculus with 288 samples.

Results

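The genes described here are 36 genes that dividing cells switch on in S phase and in G2 and M phase. They are a list of gene symbols, from Mcm2 to Stmn1, and all 36 of them matched a row by exact symbol among the 35904 genes of the deposited tables. RNA was measured in 48 libraries of each of 6 tissues from wild-type C57BL/6J mice that entered the study at 8 weeks of age. One group breathed room air (normoxia) and the other was exposed to intermittent hypoxia (IH), in which oxygen moved between 21% and 8%, for 7 days during the light phase. All mice then spent 2 days in constant darkness in normoxia, and on the second of these days lung, heart, liver, kidney, muscle and cerebellum were taken every 3 hours, at 8 labelled times from 1:30 to 22:30. Each tissue has 24 libraries in normoxia and 24 after IH, which is 3 mice for each time and treatment. The study used male mice only, and samples were collected after the exposure had ended, so every library was taken in normoxia. The labels do not say which libraries of different tissues came from the same mouse.

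A cell that divides first copies its DNA and then parts it. The Mcm genes encode the ring that unwinds DNA at the replication fork, Pcna the sliding clamp that holds the polymerases on it, and Rrm1, Rrm2, Tyms and Tk1 the enzymes that supply nucleotides. Cyclins A and B (Ccna2, Ccnb1, Ccnb2) switch on the kinase Cdk1, which drives entry into mitosis. Plk1, Aurka, Aurkb, Bub1 and Bub1b are kinases or checkpoint proteins of mitosis, and Cdc20, Ube2c and Cdca3 belong to the ubiquitin machinery that opens or closes it. Birc5, Cdca8, Kif11, Kif20a, Kif23, Tpx2, Cenpe, Cenpf, Nusap1 and Prc1 build the spindle, the kinetochore or the division furrow. Mki67 (Ki-67) and Top2a (topoisomerase IIα) are widely used marks of cycling cells, and Stmn1 (stathmin) binds tubulin and is also abundant in neurons. Adult lung, liver, kidney, heart and muscle renew slowly, whereas immature blood cells divide often. In bulk tissue, fewer cells of a dividing type and less RNA per cell cannot be told apart.

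Transcription of these genes is known to follow the cell cycle through E2F sites in S phase genes, and through a CHR element, often beside CCAAT boxes, in genes of G2 and M phase. Promoters were read from RefSeq on mouse build GRCm38.p6, 250 bases before to 50 bases after each start, and 30 of the 36 members had an entry. The following 5 are shown because they span the roles, from the replication ring to mitotic exit, and because Mcm3, Cdk1, Top2a, Ube2c and Rrm2 recur in the results. They are written 5′ to 3′ on the strand of the gene, and capitals mark motif matches on either strand. The CHR was searched as TTTGAA. The E2F site was searched as TTTCGCGC, TTTGGCGC or TTTCCCGC, and the box of CCAAT by its name. Mcm3 lies at chr1:20820263-20820562 on the minus strand, Rrm2 at chr12:24708004-24708303 on the plus strand, Cdk1 at chr10:69352863-69353162 on the minus strand, Top2a at chr11:99024140-99024439 on the minus strand and Ube2c at chr2:164769679-164769978 on the plus strand.
Mcm3: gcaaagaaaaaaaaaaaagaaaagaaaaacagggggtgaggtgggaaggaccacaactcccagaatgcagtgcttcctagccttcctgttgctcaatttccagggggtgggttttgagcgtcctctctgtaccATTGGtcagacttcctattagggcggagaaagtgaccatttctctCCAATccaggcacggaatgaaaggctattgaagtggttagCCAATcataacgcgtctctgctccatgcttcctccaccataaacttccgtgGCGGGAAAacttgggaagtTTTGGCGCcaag
Rrm2: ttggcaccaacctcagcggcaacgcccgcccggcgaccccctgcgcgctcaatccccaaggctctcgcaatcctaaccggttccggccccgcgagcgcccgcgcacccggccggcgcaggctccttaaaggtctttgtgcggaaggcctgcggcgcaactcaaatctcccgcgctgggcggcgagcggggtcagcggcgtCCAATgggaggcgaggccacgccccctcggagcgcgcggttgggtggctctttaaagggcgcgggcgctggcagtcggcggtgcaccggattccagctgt
Cdk1: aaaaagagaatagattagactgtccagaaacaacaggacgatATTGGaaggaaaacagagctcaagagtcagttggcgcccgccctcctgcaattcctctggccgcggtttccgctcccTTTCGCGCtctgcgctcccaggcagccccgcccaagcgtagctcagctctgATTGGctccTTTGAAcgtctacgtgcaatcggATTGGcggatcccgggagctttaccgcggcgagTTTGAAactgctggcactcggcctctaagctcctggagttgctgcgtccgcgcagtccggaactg
Top2a: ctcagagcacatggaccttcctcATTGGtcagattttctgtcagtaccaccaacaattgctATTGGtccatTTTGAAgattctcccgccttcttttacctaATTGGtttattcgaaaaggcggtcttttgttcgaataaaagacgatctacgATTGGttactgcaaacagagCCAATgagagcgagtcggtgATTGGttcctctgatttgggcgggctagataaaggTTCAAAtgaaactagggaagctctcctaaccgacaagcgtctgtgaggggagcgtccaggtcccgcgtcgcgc
Ube2c: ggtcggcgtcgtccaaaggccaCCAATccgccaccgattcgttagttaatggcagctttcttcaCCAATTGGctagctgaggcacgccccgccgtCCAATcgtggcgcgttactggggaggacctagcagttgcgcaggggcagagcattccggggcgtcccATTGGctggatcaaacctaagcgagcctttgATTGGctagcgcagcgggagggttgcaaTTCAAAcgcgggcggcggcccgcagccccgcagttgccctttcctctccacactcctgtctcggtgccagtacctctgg

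The E2F letters stood at 2 places in the promoter of Mcm3 and once in that of Cdk1. Cdk1 and Top2a each held 2 CHR matches and Ube2c held 1, beside 3, 6 and 6 CCAAT boxes, while that of Rrm2 held 1 CCAAT box. A pair of the Ube2c boxes overlap on opposite strands. Over the 30 members with an entry, 16 held a CHR (53.3%, against 20.2% of 27025 genes), 26 a CCAAT box (86.7% against 41.1%) and 5 an E2F site (16.7% against 2.12%). All 16 members with a CHR also held a CCAAT box (53.3%, against 7.97% of all genes). They were Mcm2 and 15 genes outside S phase, among them Aurka, Ccnb2, Kif23, Mki67 and Plk1. The 5 with an E2F site were Mcm3, Mcm5, Mcm6, Mcm7 and Cdk1. These are matches of letters, not bound sites, and other forms of each motif were not searched.

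Some libraries stood apart, and this bears on the members more than on most genes. The values are TPM, the share of a gene among all transcripts of a library, corrected for transcript length, so levels may be compared between genes. The median of the sum over 6 defining genes of a tissue was highest in that tissue in all 6 cases, but single libraries went against this. The cerebellum IH library of replicate 3 at 1:30 had 402 TPM of cerebellum genes against a median of 4771 and 10220 TPM of heart genes, and the liver IH library of replicate 2 at 13:30 had 1027 TPM of liver genes against a median of 50180 and 8919 TPM of heart genes. These libraries had the lowest median correlation with others of their tissue (0.767 and 0.693). The sum of the members without Stmn1 was 83.9 TPM in the first, below the range of 117 to 213.5 TPM in 45 other cerebellum libraries, and 44.0 TPM in the second, below 71.3 to 120.9 TPM in 47 other liver libraries. The cerebellum normoxia libraries of replicates 1 and 2 at 7:30 went the other way, with 282.9 and 219.6 TPM. Their Top2a levels were 15.0 and 9.62 TPM and their Kif23 levels 23.9 and 19.2 TPM, above the highest of the other 45 libraries (4.93 and 8.38 TPM). The sum of 6 thymocyte genes was also above those libraries in both (7.61 and 6.64 TPM against at most 3.01 TPM), as was that of 6 T cell genes (19.7 and 18.1 TPM against at most 14.1 TPM), and their part in the levels of the members was not tested.

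In the heart, 6 of 48 libraries held transcripts of thymocytes, the immature T cells of the thymus, which divide fast. Rag1, the recombinase of developing lymphocytes, was between 4.26 and 156 TPM in them and at most 0.177 TPM in the other 42, and all 6 thymocyte genes (Rag1, Rag2, Ptcra, Dntt, Cd8b1 and Themis) were split in the same way. The members without Stmn1 summed to 1991 TPM in the normoxia library of replicate 3 at 7:30 and to 1179 TPM in that of replicate 3 at 19:30. The sums after IH were 664 TPM in replicate 2 at 16:30 and 309, 177 and 241 TPM in replicates 1, 2 and 3 at 10:30. All 6 lay above the other 42 heart libraries, which ranged from 58.9 to 127.2 TPM with a median of 92.0 TPM. Top2a was between 8.01 and 142.7 TPM in the 6 libraries and between 0.569 and 4.15 TPM in the 42. Over all 36 members, 30 did not overlap between the 6 and the 42. To keep the 6 libraries from choosing the genes, overlap was also counted over genes with a mean of 1 TPM or more in the 42. There 15 of 21 members did not overlap, beside 0.795% of 12456 genes. With all 48 libraries 34 members reach that mean, so 13 of them do so through the 6 libraries.

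In the muscle, 11 of 48 libraries held transcripts of immature neutrophils, which form in bone marrow. Ngp, a granule protein of developing neutrophils, was between 55.6 and 149 TPM in them and at most 6.82 TPM in the other 37, and Camp, Ltf, Mpo, Elane and Chil3 did not overlap either. The members without Stmn1 summed to between 146 and 212.5 TPM in the 11 libraries and to between 73.4 and 147.9 TPM in the 37, with a median of 107.3 TPM. Mki67 was between 1.93 and 5.91 TPM in the 11 and between 0.0572 and 1.48 TPM in the 37. Over all 36 members, 10 did not overlap, and over the 21 at a mean of 1 TPM or more in the 37 libraries 4 did not (Rrm2, Ube2c, Cdca3 and Birc5), beside 0.157% of 12764 genes. Aurka overlapped, with medians of 7.84 and 8.49 TPM. Both sets of libraries were picked by genes outside the list once the data were known, as were all other libraries left out below, and results that rest on them are given with and without them.

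**Figure D1:**
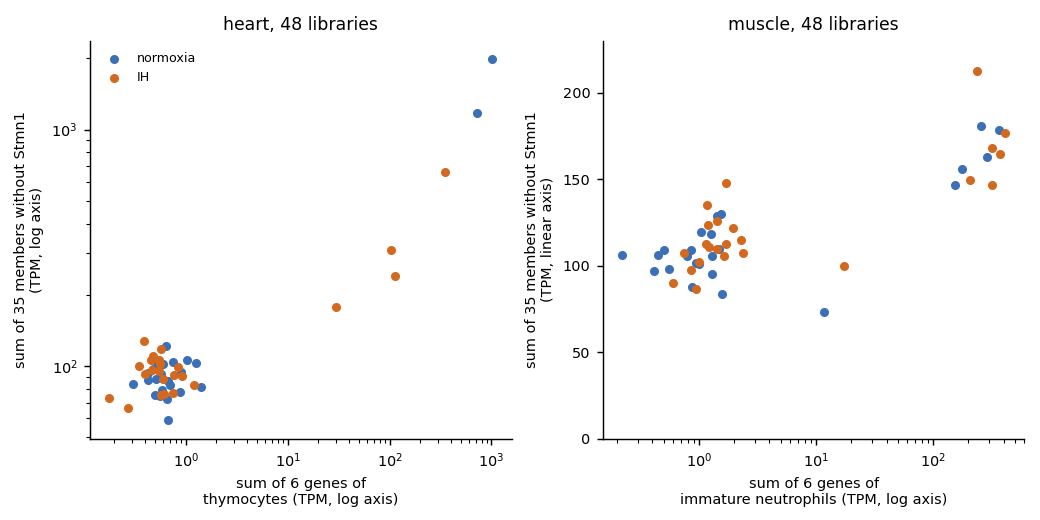
Sum of 35 members, without Stmn1, against the sum of 6 marker genes in each of the 48 heart and 48 muscle libraries, in TPM; each point is a library, colored by treatment. In the heart 6 libraries with thymocyte transcripts lie above all 42 others, and in the muscle 11 libraries with transcripts of immature neutrophils lie at 146 TPM or more.

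In normoxia and after IH together, the lung held the members at the highest level in TPM as deposited. In the lung 35 of the 36 reached a mean level of 1 TPM, with a median over the members of 4.503 TPM. The heart had 34 (median 3.67 TPM), the muscle 27 (2.05 TPM), the cerebellum 24 (1.55 TPM), the kidney 22 (1.41 TPM) and the liver 15 (0.864 TPM). The places of heart and muscle rested on the libraries that stood apart. Without them the heart had 21 (median 1.51 TPM over 42 libraries) and the muscle 21 (1.21 TPM over 37), near the cerebellum and the kidney. Stmn1 and Pcna were among the 3 highest members in all 6 tissues, with mean levels of 154.9 and 64.5 TPM in the lung, 49.6 and 39.6 TPM in the heart, 50.9 and 38.1 TPM in the kidney and 844.5 and 76.3 TPM in the cerebellum. In the liver Tk1 led with 31.4 TPM, and in the muscle Pcna with 26.3 TPM. The third place went to Mcm7 in the lung (20.8 TPM) and the heart (9.48 TPM), to Tyms in the kidney (17.8 TPM) and to Rrm1 in the muscle (11.95 TPM) and the cerebellum (18.6 TPM). Besides Stmn1, all genes in the first 3 places act in S phase. The motor of the kinetochore Cenpe was the lowest member in the lung (0.877 TPM) and the liver (0.0929 TPM), and Bub1 the lowest in the heart (0.650 TPM), the kidney (0.145 TPM) and the muscle (0.238 TPM). Mki67 was the lowest in the cerebellum (0.172 TPM).

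Among the marks of cycling cells, Mki67 under normoxia had a median of 2.85 TPM in the lung (1.87 to 4.52 TPM over 24 libraries). Its other medians were 0.666 (heart), 0.585 (muscle), 0.476 (kidney), 0.190 (liver) and 0.147 TPM (cerebellum). The lung libraries lay above all those of the liver (0.0632 to 0.580 TPM), the kidney (0.265 to 1.10 TPM) and the cerebellum (0.0627 to 0.535 TPM). They overlapped those of the heart, which reached 36.8 TPM, and of the muscle, which reached 4.46 TPM, in libraries that stood apart. Top2a had medians of 10.1, 2.50, 1.54, 1.47, 1.19 and 1.01 TPM in lung, heart, muscle, cerebellum, kidney and liver. Cdk1 followed with 5.22 TPM in the lung and between 1.45 and 2.50 TPM in the other tissues, and Ccnb1 with 1.53 TPM in the lung and between 0.242 and 0.795 TPM elsewhere. Of the S phase genes, Mcm2 had medians of 7.74 (lung), 3.66 (kidney), 3.48 (muscle), 2.31 (cerebellum), 1.99 (heart) and 1.11 TPM (liver), and Pcna ranged from 81.6 TPM in the cerebellum to 21.7 TPM in the liver.

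**Figure D2:**
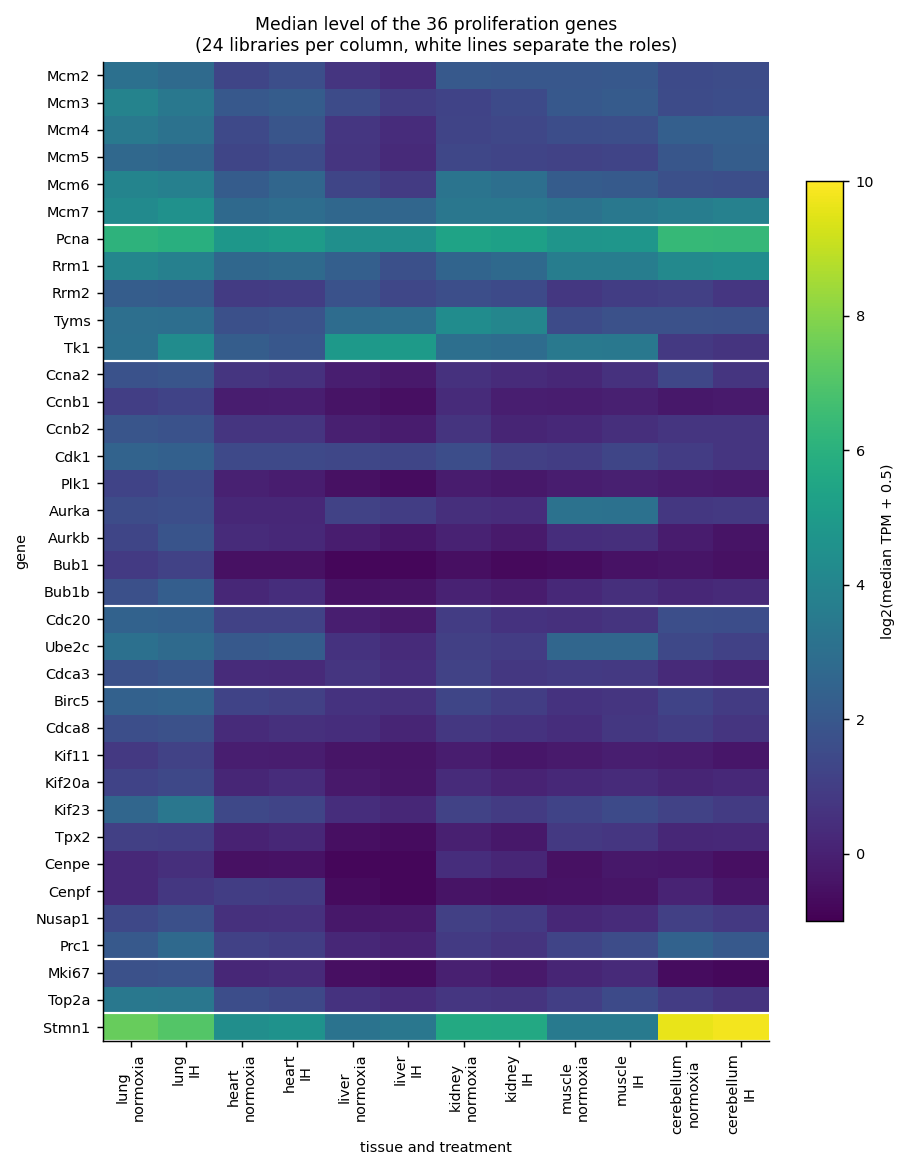
Median level of each of the 36 members in 24 libraries of each tissue and treatment, as log2(median TPM + 0.5), in color; white lines separate the roles, from the replication ring at the top to Stmn1 at the bottom. The lung columns are brighter over most rows, and Stmn1 is brightest in the cerebellum.

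Differences between tissues in normoxia were tested with limma on log2(TPM + 0.5) after scaling each library by its median of ratios, as 1 tissue against the mean of the other 5, over the 15492 genes at a mean level of 1 TPM or more in normoxia. Genes that passed both an adjusted p of 0.05 over all genes and a 2-fold difference were called. In every tissue the share of members called was under that of all genes. Over the 31 members tested, the median log2 difference was 0.45 in the heart, 0.38 in the lung and -0.09 in the muscle. It was -0.20 in the kidney, -0.41 in the cerebellum and -0.46 in the liver. On these scaled values the lung was thus not first, with the heart libraries that held thymocyte transcripts included. Of the 31 members tested, 5 were higher and 0 lower in the lung, where 37.3% of all genes were called, 17.7% as higher and 19.6% as lower. They were Top2a, with a log2 difference of 1.48 ± 0.166 (standard error), Mcm3 (1.36 ± 0.101), Stmn1 (1.17 ± 0.121), Mki67 (1.05 ± 0.143) and Mcm4 (1.04 ± 0.0731). All had adjusted p-values of 2.44e-11 or less. On the scale of TPM as deposited, 18 members were higher in the lung. The share of all genes called on that scale was not counted, so this number says nothing of the members as a set.

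The liver had 3 members higher and 1 lower, where 42.2% of all genes were called (16.7% higher and 25.5% lower). Tk1, the salvage enzyme of thymidine, was higher by 3.23 ± 0.0915 on the log2 scale, at 17.8, 30.6 and 44.6 TPM (lowest, median and highest) in the liver against a median of 7.83 TPM in the lung and 1.30 TPM in the cerebellum. Tyms (1.15 ± 0.126) and Rrm2 (1.06 ± 0.158) were also higher, and Stmn1 was lower (-2.15 ± 0.121). Tk1 shares 169 bases with Afmid, a gene of the opposite strand that had 81.4 TPM in the liver and 43.3 TPM in the kidney. All 10567 bases of Tk1 also lie within Gm20708, another gene of the opposite strand, which had 0.923 TPM in the liver. The kits kept the strand, but whether counting used it is not given in the sources used here. Overlaps here and below are of whole gene spans with introns, and shared exon sequence was not counted. Whether reads of the members were affected is therefore not known. With TPM as deposited, 1 member was higher and 15 were lower in the liver, and the share of all genes called there was not counted.

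In the kidney Tyms was higher (1.90 ± 0.126), with 12.3, 19.9 and 26.7 TPM, and Mcm3 (-1.13 ± 0.101), Ube2c (-1.03 ± 0.129) and Aurka (-1.01 ± 0.1002) were lower; 33.3% of all genes were called there (14.8% higher and 18.5% lower). In the muscle Aurka, a kinase of the spindle poles, was higher by 2.41 ± 0.1002, with 6.40, 8.41 and 11.6 TPM against medians of 0.679 to 2.45 TPM in the other tissues. Its muscle libraries of normoxia lay above every normoxia library of lung, liver, kidney and cerebellum. Ube2c was also higher in the muscle (1.12 ± 0.129), and Stmn1 (-2.42 ± 0.121) and Tyms (-1.13 ± 0.126) were lower, where 27.6% of all genes were called (12.6% higher and 15% lower). Without the muscle libraries that held neutrophil transcripts, the difference of Ube2c was 0.96 and it was no longer called. Ube2c shares 1662 bases on the opposite strand with Tnnc2, the fast troponin C, which had 22890 TPM in the muscle.

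In the heart Ube2c was called higher (1.18 ± 0.129), where 23.9% of all genes were called (11.1% higher and 12.9% lower). Without the 6 libraries with thymocyte transcripts its difference was 0.86, and limma called 0 of the 25 members then tested, of which 21 had an unadjusted p under 0.05 (85.3% of all genes). The cerebellum had 1 member higher and 7 lower, where 43.9% of all genes were called (19.8% higher and 24.1% lower). Stmn1 was higher by 4.19 ± 0.121, with 396.9, 795 and 1243 TPM, above every normoxia library of the other tissues except 1 heart library, at 664.7 TPM, that held thymocyte transcripts. Tk1 was lower, with a difference of -2.85 ± 0.0915, and Mcm6, Mcm3, Tyms, Mki67, Cdk1 and Cdca3 had differences between -1.33 and -1.02.

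Whether IH changed the mean level over 24 hours was then tested in each tissue, with limma on the 24 libraries of each treatment where a call needed a 1.5-fold change beside an adjusted p of 0.05. In the lung, Tk1 rose, and Mcm3, Stmn1, Mcm4 and Ube2c fell. Thus 5 of 35 members tested were called, 1 higher and 4 lower, beside 13.48% of the 15426 genes tested in the lung, 9.09% higher and 4.39% lower. The median log2 change was -0.18 over the members and -0.08 over all genes. Genes of the replication ring had a median change of -0.52, the nucleotide and clamp genes of -0.36, and the cyclins with kinases and the spindle genes of -0.00 and -0.01. The mitotic genes of the ubiquitin machinery had changes of -0.59 (Ube2c), -0.40 (Cdc20) and -0.04 (Cdca3). Top2a (-0.43 ± 0.0788, adjusted p = 5.77e-06) and Cdk1 (-0.38 ± 0.0986, adjusted p = 0.000763) were lower but under the fold limit. Mki67 (-0.18 ± 0.0869, adjusted p = 0.0636) and Ccnb1 (-0.00 ± 0.0808, adjusted p = 0.976) were not called either.

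Tk1 was at 6.13, 7.83 and 11.1 TPM (lowest, median and highest) in the 24 lung libraries of normoxia and at 12.5, 20.2 and 50.1 TPM after IH. The groups did not overlap. The log2 change was 1.02 ± 0.0898 (limma, adjusted p = 2.26e-13). Tk1 lies on chromosome 11 from 117815526 to 117826092 (minus strand). Its opposite-strand neighbor Afmid had a median of 2.74 TPM in normoxia and of 6.07 TPM after IH (n = 24 each).

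Mcm3 had 10.54, 14.6 and 23.4 TPM in normoxia and 8.08, 10.2 and 14.6 TPM after IH, and 18 of the 24 IH libraries lay below the lowest of normoxia. Its log2 change was -0.84 ± 0.0776 (adjusted p = 8.01e-13). The other genes of the ring did not move alike. Mcm4 was called, at 6.80, 10.4 and 12.4 TPM in normoxia and 5.38, 8.38 and 11.6 TPM after IH (-0.59 ± 0.0842, adjusted p = 3.09e-08), with 9 IH libraries below the lowest of normoxia. Mcm2 (-0.53 ± 0.0788), Mcm6 (-0.51 ± 0.0699) and Mcm5 (-0.35 ± 0.0734) were under the fold limit, and Mcm7 had 0.06 ± 0.0313 (adjusted p = 0.111).

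Stmn1 was at 133.4, 174.4 and 215.1 TPM in normoxia and at 85.7, 132 and 185.2 TPM after IH, a log2 change of -0.71 ± 0.0776 (adjusted p = 6.04e-11). Ube2c, the E2 enzyme that works with the anaphase-promoting complex, had 5.81, 7.91 and 12.1 TPM in normoxia and 3.66, 6.41 and 10.6 TPM after IH (-0.59 ± 0.0993, adjusted p = 1.09e-06). Below the lowest normoxia library lay 14 IH libraries for Stmn1 and 8 for Ube2c. Pcna (-0.47 ± 0.0474) and Rrm1, the large subunit of ribonucleotide reductase (-0.56 ± 0.0484), had adjusted p-values of 6.62e-12 and 1.61e-13 and stayed under the fold limit. With an adjusted p alone, 22 members passed, 4 higher and 18 lower, beside 70.4% of all genes, 28.9% higher and 41.5% lower.

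**Figure D3:**
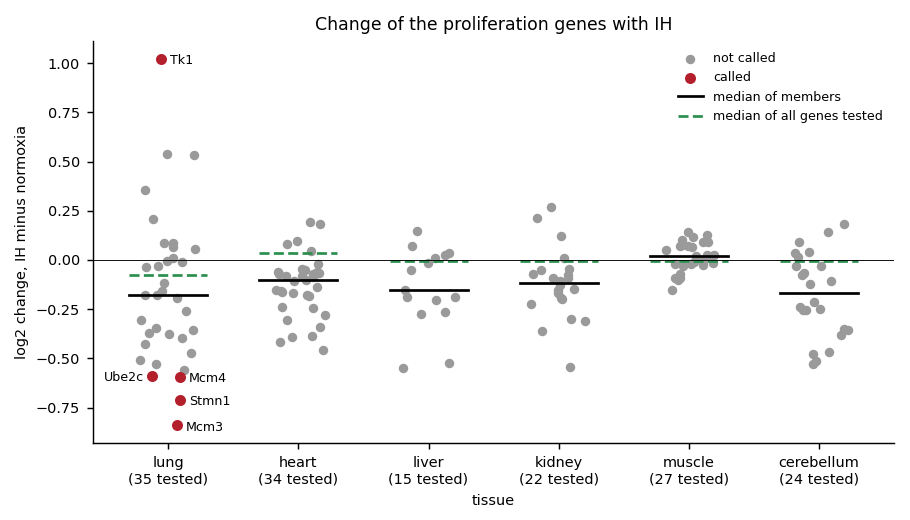
Log2 change of each member tested, IH minus normoxia, in the 6 tissues; red points are called, the black line is the median of the members and the dashed line the median of all genes tested. In the lung Tk1 lies at 1.02 and Mcm3 lowest at -0.84, and no member is called in the other tissues.

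The scale of the lung libraries decided much of this direction. With TPM as deposited, the median of all genes was 0.21 instead of -0.08, and that of the members 0.08 (20 of 35 above 0, instead of 10). On that scale Tk1 (1.31), Kif23 (0.82), Prc1 (0.82) and Bub1b (0.62) were called higher, beside 2966 of 15426 genes called in either direction. Mcm3 (-0.55), Stmn1 (-0.41), Mcm4 (-0.31) and Ube2c (-0.31) had lower values that were not called. Relative to all genes, Mcm3 and Stmn1 were lower and Tk1 higher on both scales. Mcm7 had 0.35 there and Mki67 0.08, so that the sign of Mki67 turned.

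The number of genes above 0 TPM also moved with treatment in the lung. It was between 21746 and 23480 in 23 normoxia libraries and 25400 in 1, and between 23622 and 28284 after IH, so that 23 normoxia libraries lay below all 24 IH libraries. In normoxia, in the 15 IH libraries up to the highest number of normoxia and in the 9 above it, mean Tk1 was 8.02, 17.2 and 29.4 TPM, Kif23 5.62, 8.99 and 13.47 TPM, and Prc1 3.76, 5.92 and 9.29 TPM. The mitotic kinesin Kif23 and its partner Prc1, which bundle the spindle midzone, thus had the highest levels where most genes were detected. All 21810 bases of Prc1 also lie within Rccd1, a gene of the opposite strand that moved in the same order, with 4.49, 7.12 and 12.8 TPM. That span includes introns, and shared exon sequence was not counted, so whether reads of Prc1 were affected is not known. Mean Mcm4 was 10.0, 9.55 and 5.98 TPM in the same order, and mean Mcm3 15.3, 10.6 and 9.58 TPM.

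Without those 9 libraries, 2 members were called, Tk1 (0.78) and Mcm3 (-0.75), beside 6.86% of all genes. When that number entered the model, a choice also made once the data were known, Mcm3 (-0.79), Ube2c (-0.62) and Birc5 (-0.62) were called, beside 1686 of 15426 genes. Tk1 (0.40), Stmn1 (-0.46) and Mcm4 (-0.00) were not. Without the lung library least like the others (IH, replicate 2 at 1:30, median correlation 0.871), Tk1, Mcm3 and Stmn1 were called, beside 11.5% of all genes. As that number hardly overlapped between treatments, the parts of treatment and of the number of genes detected cannot be told apart. Markers of several cell types were lower after IH too. Of 6 genes each, 4 of lung epithelium (median log2 change -0.76), 4 of endothelial cells (-0.69), 4 of erythroid cells (-0.76), 3 of B cells (-0.58), 2 of T cells (-0.37) and 2 of fibroblasts (-0.26) fell. Of the macrophage genes 1 fell (0.06), and of those of immature neutrophils 1 rose and 1 fell (-0.41). The sum of the endothelial genes was between 858.6 and 1979 TPM in normoxia and between 775.2 and 1630 TPM after IH, that of the B cell genes between 176.7 and 815 TPM and between 81.7 and 579.6 TPM, and that of the immature neutrophil genes between 198.6 and 629.8 TPM and between 268.7 and 3355 TPM. Their part in the changes of the members was not tested.

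**Figure D4:**
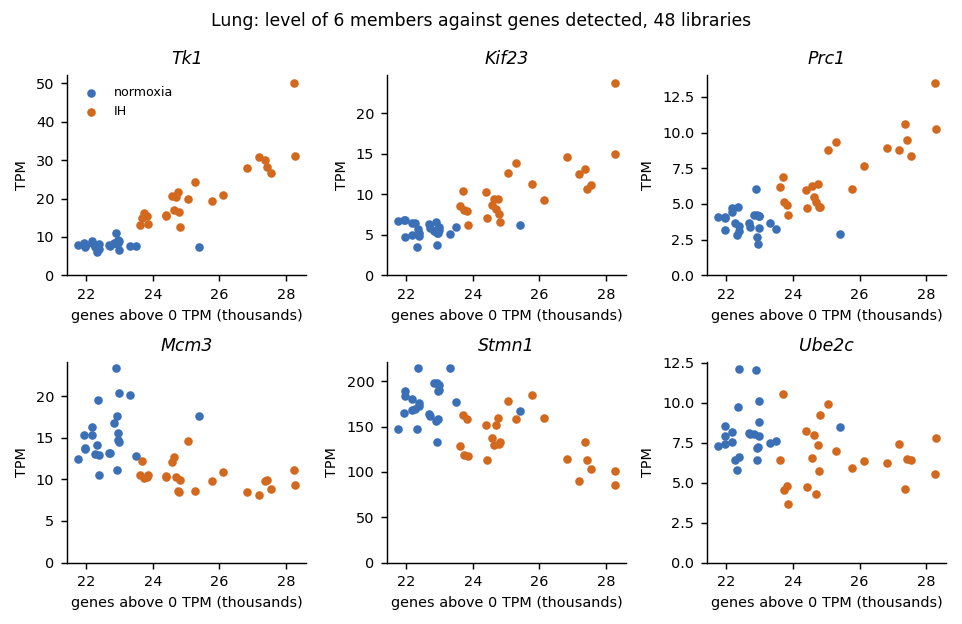
Level in TPM of 6 members against the number of genes above 0 TPM in each of the 48 lung libraries, colored by treatment. Tk1, Kif23 and Prc1 are highest in the libraries with the most genes detected, and Mcm3 is at or under 14.6 TPM in all IH libraries.

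In the other tissues 0 members were called by limma. The shares of all genes called were 2.95% (heart), 3.65% (liver), 0.783% (kidney), 0.374% (muscle) and 2.64% (cerebellum). At an unadjusted p of 0.05 there were 3 of 34 members in the heart, beside 52% of all genes, and 6 of 15 in the liver, beside 37%. The kidney had 12 of 22 (33% of all genes), the muscle 1 of 27 (23.9%) and the cerebellum 6 of 24 (30.3%). The median log2 change over the members was -0.10 (heart), -0.15 (liver), -0.12 (kidney), 0.02 (muscle) and -0.17 (cerebellum), against between -0.01 and 0.04 over all genes. With TPM as deposited, the median over all genes was 0.15 in the heart and -0.12 in the liver.

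The direction in the heart was not stable. The number of genes above 0 TPM did not overlap there between treatments, at 22988 to 28331 in normoxia and 20316 to 22793 after IH, so that its part and that of treatment cannot be told apart. With that number in the model the median change of the members was 0.79, with 33 of 34 above 0, and 0 were called by limma, 11 of them at an unadjusted p of 0.05 beside 20.5% of all genes. It was 0.30 without replicate number 3 and -0.46 without replicate number 2, where Tk1 was called lower (-0.69). The normoxia libraries with thymocyte transcripts were all of replicate 3 and had 26720 and 28255 genes above 0 TPM. Without the 6 libraries with thymocyte transcripts, the median change of the members was -0.12, with 5 of 21 above 0. The part of these libraries in the other values was not tested.

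Some members passed an adjusted p of 0.05 with changes under 1.5-fold. In the liver these were Mcm3, Rrm1, Mcm4 and Aurka, all lower, beside 24.2% of all genes, 10.9% higher and 13.3% lower. Mcm3 had 1.35, 2.38 and 3.76 TPM in normoxia and 0.652, 1.496 and 2.53 TPM after IH (-0.55 ± 0.108, adjusted p = 0.000251). Rrm1 had 3.16, 4.59 and 6.58 TPM and 1.52, 2.68 and 4.42 TPM (-0.52 ± 0.0914, adjusted p = 4.96e-05). Of the 24 IH libraries, 10 lay below the lowest of normoxia for Mcm3 and 17 for Rrm1. Without the liver library of IH replicate 2 at 13:30, Mcm3 was called (-0.59), beside 3.03% of all genes. The makeup of the liver libraries moved with treatment as well. The sum of liver genes was between 44995 and 86634 TPM in normoxia and between 1027 and 60165 TPM after IH. That of heart genes was between 5.08 and 79.7 TPM and between 32.7 and 8919 TPM, and that of kidney genes between 0.211 and 10.2 TPM and between 5.05 and 38.4 TPM. Of the liver genes 3 of 6 fell, and 6 of 6 heart genes and both kidney genes tested rose. Their part in the values of the members was not tested.

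In the kidney 5 members were lower and 2 higher by that rule, beside 19.8% of all genes, 8.25% higher and 11.5% lower. Cdk1, the kinase that starts mitosis, had 1.61, 2.50 and 4.34 TPM in normoxia and 0.476, 1.59 and 2.62 TPM after IH (-0.54 ± 0.107, adjusted p = 0.00025) and 12 of the 24 IH libraries lay below the lowest of normoxia. Cdca3 (-0.36), Cdc20 (-0.30), Tyms (-0.22) and Cdca8 (-0.19) were also lower, and Mcm3 (0.27) and Rrm1 (0.22) were higher. Mcm3 and Rrm1 thus had changes of opposite sign in liver and kidney. Against the mean change of the other 5 tissues, those of the kidney were higher by 0.57 ± 0.133 and 0.47 ± 0.104 and those of the liver lower (-0.47 ± 0.133 and -0.43 ± 0.104), all under the fold limit, and liver and kidney were not tested against each other. The sum of erythroid genes in the kidney was between 496.1 and 1131 TPM in normoxia and between 715.3 and 3175 TPM after IH, and 3 of the 4 erythroid genes tested rose; their part was not tested.

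In the cerebellum Ccna2 (-0.48 ± 0.128, adjusted p = 0.00795) and Rrm2 (-0.35 ± 0.105, adjusted p = 0.0177) were lower, beside 15% of all genes. In the heart Tk1 was lower (-0.46 ± 0.161, adjusted p = 0.0187), beside 45.2%, and had 0.12 with the number of genes detected in the model. In the muscle 0 members passed, beside 10.4%. Without the 6 heart libraries with thymocyte transcripts, 0 of 21 members tested were called by limma, beside 2.75% of all genes, and 12 reached an unadjusted p of 0.05, beside 57.5% of all genes. Tk1 had a log2 change of -0.42 ± 0.0662 there. It was at 2.75, 4.09 and 6.83 TPM in 22 normoxia libraries and at 2.28, 3.40 and 4.99 TPM in 20 IH libraries, and Top2a at 1.09, 2.45 and 3.58 TPM and 0.569, 2.10 and 4.15 TPM. With 1 cerebellum library left out, the one of IH replicate 3 at 1:30 with more TPM of heart than of cerebellum genes, Birc5 was called (-0.59), beside 5.22% of all genes. When the normoxia libraries of replicates 1 and 2 at 7:30 were left out as well, Birc5 was not (-0.43, adjusted p = 0.0852), and 2.73% of all genes were. Without the muscle libraries with neutrophil transcripts, 0.274% of all genes and 0 of 21 members were called in the muscle, with 2 at an unadjusted p of 0.05 (21.1% of all genes).

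The difference between tissues in the response to IH was tested itself, as the change in 1 tissue minus the mean change in the other 5, over 15551 genes and 29 members. In the lung 6 members were called, beside 12.9% of all genes, 6% higher and 6.94% lower. Tk1 was higher by 1.11 ± 0.140 (limma, adjusted p = 1.3e-12), Kif23 by 0.65 ± 0.196 (adjusted p = 0.00248) and Prc1 by 0.62 ± 0.147 (adjusted p = 9.7e-05). Stmn1 (-0.80 ± 0.171, adjusted p = 1.6e-05), Mcm3 (-0.79 ± 0.133, adjusted p = 5.1e-08) and Mcm4 (-0.60 ± 0.101, adjusted p = 7.4e-08) were lower. Without the 9 lung libraries with most genes detected, Tk1 (0.87), Mcm3 (-0.72) and Stmn1 (-0.67) were still called. In the heart, liver, kidney, muscle and cerebellum 0 of 29 members were called by limma, beside 5.95%, 4.7%, 1.31%, 0.193% and 3.61% of all genes. In the same order 5, 4, 3, 2 and 4 had an unadjusted p under 0.05, beside 49%, 43.9%, 26.5%, 14.4% and 38.8% of all genes.

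Rhythm over the 24 hours was tested as a cosine and a sine term of 24 hours in the 24 libraries of each tissue and treatment, at an adjusted p of 0.05. The liver had the most rhythmic members in normoxia, 5 of 18 tested, beside 17.8% of all genes. Rrm2, the small subunit of ribonucleotide reductase, rose from 1.79 ± 0.508 TPM at 1:30 to 5.98 ± 0.847 TPM at 13:30 and fell to 2.25 ± 0.595 TPM at 22:30 (SD, n = 3 each). Its amplitude was 0.64 on the log2 scale with a peak at 13.8 h (limma, adjusted p = 5.6e-05). Cdk1 peaked at 10.9 h, Tk1 at 16.2 h, Mcm4 at 20.5 h and Aurka at 22.45 h. After IH, 0 of 12 members passed in the liver, beside 2.55% of all genes, and 3 reached an unadjusted p of 0.05, beside 11.8%. Rrm2 then had an amplitude of 0.52 with a peak at 14.1 h (adjusted p = 0.0594). Without the liver library of replicate 2 at 13:30, 4 members passed, and the share of all genes that passed was not counted.

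In the kidney Mcm7 and Nusap1 were rhythmic under both treatments. The peak of Mcm7 was at 2.65 h in normoxia and 1.72 h after IH, and that of Nusap1, which bundles spindle microtubules, at 8.32 h and 9.3 h. Nusap1 rose from 1.31 ± 0.261 TPM at 1:30 to 2.02 ± 0.499 TPM at 10:30 in normoxia and was at 1.13 ± 0.0476 TPM at 16:30. Rrm1 was also called in normoxia and Tk1 after IH, so that 3 of 24 and 3 of 22 members passed, beside 20.9% and 5.62% of all genes. These kidney calls depended on the scale. With TPM as deposited, or a cosine on linear TPM, no kidney member passed under either treatment. After IH none passed when any replicate number was left out. In the lung Bub1, a kinase of the spindle checkpoint, was called under both treatments, 1 of 34 members in normoxia (9.7% of all genes) and 1 of 36 after IH (4.15%). Its amplitude was 0.27 with a peak at 23.7 h in normoxia and 0.42 with a peak at 23.6 h after IH. It was at 3.26 ± 0.434 TPM at 1:30 and 1.04 ± 0.460 TPM at 10:30 after IH. On those 2 other scales no lung member passed in normoxia.

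In the muscle Aurka was rhythmic in normoxia (amplitude 0.26, peak at 0.835 h, adjusted p = 2.2e-05), 1 of 27 members beside 6.41% of all genes. It was between 7.28 ± 0.780 TPM at 13:30 and 10.9 ± 0.856 TPM at 22:30. With TPM as deposited, or a cosine on linear TPM, no muscle member passed in normoxia. After IH 8 of 27 members passed, beside 8.68% of all genes. They were Ccna2, Ccnb2, Cdk1, Kif23, Pcna, Stmn1, Top2a and Tyms, with peaks between 14.3 and 17.9 h and amplitudes between 0.17 and 0.70. Of the 6 muscle IH libraries with neutrophil transcripts, 1 each was from 10:30, 13:30, 16:30 and 22:30 and 2 were from 19:30, and 0 were from 1:30, 4:30 or 7:30. Without the muscle libraries with neutrophil transcripts, 0 members passed after IH, and Aurka still passed in normoxia. Over both treatments, 27 members reached a mean of 1 TPM with those 11 libraries and 21 without them. Of the 8 members, Ccna2 and Ccnb2 had medians of 2.83 and 2.85 TPM in the 11 libraries. In the 37 others their medians were 0.620 and 0.647 TPM, and those of the other 6 members were 1.45 TPM or more. Some members thus reached the filter only with libraries in which they were high. The 8 of 27 beside 8.68% is therefore not shown to be an excess. With the replicate number as a block, 16 members passed after IH, and 9 of the 11 libraries with neutrophil transcripts were of replicate 3. The shares of all genes that passed in these settings were not counted.

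In the heart 0 of 34 members passed under either treatment by limma, beside 0.616% and 4.37% of all genes, and 0 and 1 reached an unadjusted p of 0.05, beside 5.95% and 16%. In the cerebellum 0 of 24 passed, beside 0.00658% and 0.0207% of all genes, and 5 and 0 reached that p, beside 20.8% and 3.53%. The difference of rhythm between treatments was tested itself in each tissue, and 0 members and 0% of all genes passed in any of them, with 1 member in the muscle and 2 in the cerebellum at an unadjusted p of 0.05 (4.52% and 4.59% of all genes). A rhythm called under only 1 treatment is therefore not shown to differ from the other.

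**Figure D5:**
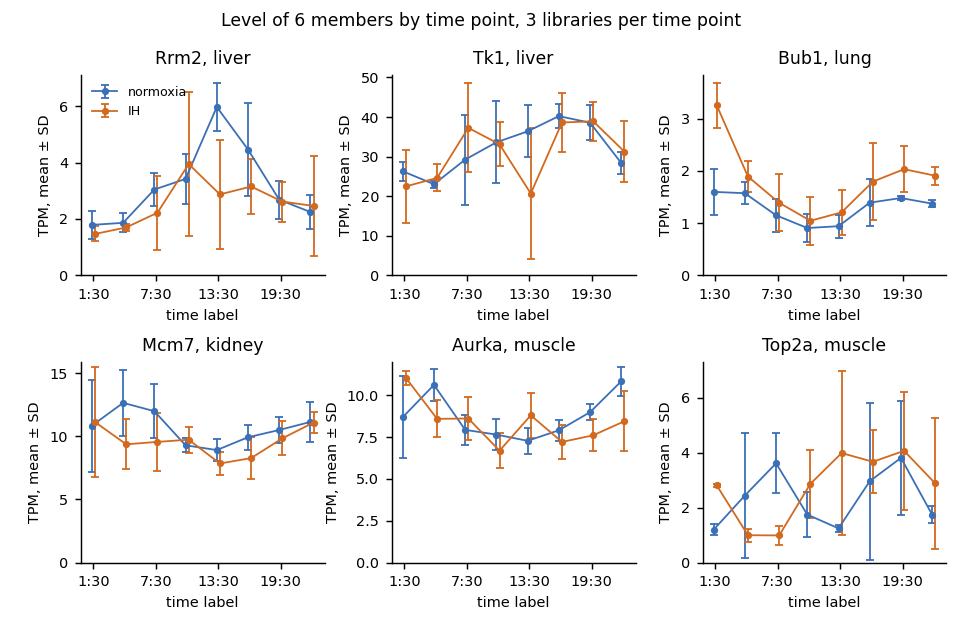
Mean level in TPM with SD of 3 libraries at each of 8 time points, in normoxia and after IH, for 6 members in the tissue named; the time axis is the labelled clock. Rrm2 of the liver in normoxia is highest at 13:30, at 5.98 ± 0.847 TPM, and Aurka of the muscle in normoxia lowest at 13:30, at 7.28 ± 0.780 TPM.

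The regulators around the members were taken from lists of the pathway. In the lung, 2 of 15 E2F, DREAM and B-MYB factors tested rose, E2f7, a repressor among the E2F factors (0.76 ± 0.128), and Mybl2, which drives genes of G2 and M phase (0.78 ± 0.102). Of 10 inhibitors and checkpoint genes, Cdc25c, the phosphatase that activates Cdk1, rose (0.98 ± 0.176), and Cdkn1c, an inhibitor of the cyclin-dependent kinases, fell (-0.77 ± 0.112). Of 13 licensing genes, Orc1 rose (0.96 ± 0.143) and Gins2 fell (-0.60 ± 0.118). All 6 had adjusted p-values of 1.63e-05 or less (limma), and 0 of 8 cyclins and kinases of G1 and S phase were called. Together 6 of 46 genes were called, 13% beside 13.48% of all lung genes. Without the 9 lung libraries with most genes detected 1 of 44 was called, Gins2 (-0.72). In the heart E2f7 fell (-0.79 ± 0.106, 1 of 14 factors), and in the liver Gins2 fell (-0.62 ± 0.136, 1 of 11 licensing genes). In the kidney, muscle and cerebellum 0 genes of the 4 lists were called.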

How the data were processed

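Libraries were made with a directional kit, and per the labels and methods the authors quantified reads with kallisto on Ensembl transcripts and deposited TPM (length-corrected shares of all transcripts in a library), 1 table for each tissue and treatment. The submitters' processing notes name FastQC 0.11.3, bcl2fastq, DESeq2 and build mm10. TPM are scaled to each library and sum to between 989211 and 999188, so depth is unknown, no counting interval can be given, and a rise of one gene lowers the share of others. No library was left without a group, and 0 libraries of the same tissue were identical. Most pairs of libraries from different tissues were not compared.

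TPM were divided by median-of-ratios factors, and log2(TPM + 0.5) was fitted with limma 3.58.1 in R 4.3.3 over genes with a mean of 1 TPM or more, with Benjamini-Hochberg adjustment over all genes. Calls needed a 1.5-fold change (2-fold between tissues, no limit for rhythm) beside an adjusted p of 0.05. Fold changes on this scale understate changes of low genes. The fits were tested on simulated data. Tables and plots used Python 3.11.15, numpy 2.4.6, pandas 2.3.3 and matplotlib 3.10.9.

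Named genes were the members called, the 3 highest and the lowest per tissue, and Mki67, Top2a, Cdk1, Ccnb1, Mcm2 and Pcna. The levels of these last genes in normoxia were compared over the tissues. Their changes after IH were not given in every tissue. Members under a mean of 1 TPM in a tissue were not tested there. The members and lists were chosen with earlier results of these data known. Each replicate was 1 mouse. Libraries of several tissues may share a mouse, which the contrasts between tissues do not model. In the muscle, deviations of same-numbered libraries of both treatments correlated across genes (0.16, 0.38 and 0.65), but number 1 matched number 2 best. Of the 11 muscle libraries with neutrophil transcripts, 9 were of number 3. No main fit paired libraries, and the replicate number entered a model only as a block in an alternative.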

Additional observations from a re-analysis of the deposited data

Results flagged for a closer look

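The change after IH differed between the lung and the mean of the other 5 tissues for 6 members, by limma's test of that difference. It was higher in the lung for Tk1 (1.11 on the log2 scale), Kif23 (0.65) and Prc1 (0.62). It was lower for Stmn1 (-0.80), Mcm3 (-0.79) and Mcm4 (-0.60). Without the 9 lung IH libraries with most genes detected, Kif23 (0.48), Prc1 (0.44) and Mcm4 (-0.35) were not called.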

How the results depend on the processing

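Of 447 alternatives over 36 counts of members, 354 left the count within 1.5 times and 93 moved it, 43 of these for rhythm. Some of the 354 could not have moved. Settings that left out only IH libraries did not touch the levels in normoxia. All 56 alternatives for a rhythm that differs between treatments stayed at a count of 0. The 354 is therefore no measure of stability. Among the 5 members called in the lung, none changed direction; over 17 alternatives Mcm3 kept its call in 16, Tk1 in 15, Stmn1 in 13, Ube2c in 11 and Mcm4 in 9. Members changed by IH were 5 in the lung and 0 elsewhere. In the lung the count was 3 with a pseudocount of 1 and 3 with the number of genes detected in the model. It was 3 without the library of lowest correlation and 2 without the 9 libraries with most genes detected. With an adjusted p alone it was 22, and with replicate numbers 1 and 2 alone 8 and 9. In the same order 1757, 1686, 1757, 1031, 10864, 3748 and 3399 of all genes were called, against 2079 in the main fit. Adjusted p alone gave 1 in the heart, 4 in the liver, 7 in the kidney and 2 in the cerebellum. In the liver it was 1 with a pseudocount of 0.1 and 2 with TPM as deposited. With replicate numbers 1 and 2 alone it was 2 and 1, and without the library of lowest correlation 1. In that order 525, 588, 1459, 1001 and 341 of all genes were called, against 414 in the main fit. In the kidney it was 1 with a pseudocount of 0.1 and 3 with replicate number 3 alone. Of all genes 121 and 348 were called there, against 101 in the main fit. In the cerebellum it was 1 with replicate number 1 alone and 1 without the library of lowest correlation. Of all genes 918 and 776 were called there, against 393 in the main fit. Leaving out a replicate number gave 4 to 8 (lung), 0 to 1 (heart), 0 to 1 (liver), 0 to 1 (kidney) and 0 to 4 (cerebellum). Genes called then were 1509 to 3441, 271 to 504, 48 to 1491, 90 to 147 and 31 to 1973 in the same order.

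The count of members whose change differed in the lung was 3 with a pseudocount of 1 and 3 without the 9 libraries. With TPM as deposited 2 differed in the liver and 1 in the cerebellum, where 1 did without the library of lowest correlation. Leaving out a replicate number gave 0 to 5 (heart), 0 to 1 (liver), 0 to 1 (kidney) and 0 to 4 (cerebellum). Between tissues in normoxia, a pseudocount of 1 gave 3 (lung), 1 (kidney) and 5 (cerebellum), no filter 2 (heart), TPM as deposited 18 (lung), 16 (liver) and 2 (kidney), and the 6 heart libraries left out 0 (heart) and 2 (kidney). Leaving out a replicate number gave 3 to 5 (lung), 0 to 2 (heart) and 5 to 12 (cerebellum).

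Rhythm counts were small and moved most. With TPM as deposited they were, in normoxia and IH, 0 and 2 (lung), 3 and 1 (liver), 0 and 0 (kidney), and 0 and 2 (muscle), and with a cosine on linear TPM 0 and 2, 3 and 1, 0 and 0, and 0 and 1. With no filter they were 0 (lung, IH), 3 (liver, normoxia), 1 (kidney, IH) and 2 (muscle, IH). After IH they were 2 in the lung and 4 in the liver without the library of lowest correlation, 0 in the lung without the 9 libraries, and 0 in the muscle without those with neutrophil transcripts. Leaving out a replicate number gave 0 to 1 (lung, normoxia), 0 to 1 (lung, IH), 1 to 3 (liver, normoxia), 0 to 1 (liver, IH), 1 to 4 (kidney, normoxia), 0 to 0 (kidney, IH) and 0 to 1 (muscle, IH). The replicate block gave 16 in the muscle after IH, 9 and 2 in the liver, and 1 in the cerebellum in normoxia, and moved no other count. Outside the muscle, the lowest correlation of same-numbered libraries was between -0.52 (lung) and -0.06 (liver), and no tissue was taken as paired. In the liver numbers 1 and 3 correlated at 0.67 and 0.49, each best with its own number, a hint from the data that the design does not give, while number 2 did not. The cause of these shifts was not tested. For rhythm and for contrasts between tissues, the shares of all genes called under the alternatives were not counted. TPM hold no depth, so the precision of low members cannot be given.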
